A study of Homo sapiens with 4 samples.

Results

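Aminoacyl-tRNA synthetases were examined in RNA-seq libraries of MCF10A cells, a non-tumorigenic human breast epithelial line. The genes were taken from a list of 36 members, 20 named for cytosolic enzymes and 16 for mitochondrial enzymes, whose symbols end in 2, out of 63856 genes in the count table. Wild type cells were compared with cells stably overexpressing HSF1 from the lentiviral pLVX vector after puromycin selection (HSF1-pLVX), and each variant had 2 biological replicates. Both variants were grown in the same medium with horse serum, insulin, hydrocortisone, EGF and, per the labels, cholera toxin. The number of empty-vector libraries used here was 0, so the introduced HSF1 cannot be told apart from the vector, its selection and separate culture. The methods describe HSF1-pLVX cells as transduced and selected and mention no cloning.

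Aminoacyl-tRNA synthetases join each amino acid to its own tRNA and so set the supply of charged tRNAs for translation. Human cells keep one set of enzymes in the cytosol and another in mitochondria, and both sets are encoded in the nucleus. The GARS and KARS genes each make both a cytosolic and a mitochondrial form, so the division by name is not strict. Several cytosolic enzymes form the multisynthetase complex with the scaffold proteins AIMP1, AIMP2 and EEF1E1, while the others are free. Many genes of the cytosolic set are known targets of ATF4, the transcription factor of the amino acid stress response.

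The libraries held between 18688109 and 24184285 counts. Levels are given as CPM, the usual depth-scaled count, after TMM normalization of the library sizes. HSF1, the introduced gene, was at 200 and 189 CPM in wild type replicates 1 and 2 and at 982 and 999 CPM in HSF1-pLVX replicates 1 and 2. Fitted on the log2 scale, HSF1 was higher by 2.35 ± 0.0999 (SE, edgeR adjusted p = 1.15e-10). All 9 breast epithelial markers examined had at least 10 counts in every library. Their summed level was 19560 and 19260 CPM, unscaled by TMM, in wild type replicates 1 and 2 and 11840 and 12320 CPM in HSF1-pLVX replicates 1 and 2. The markers moved in both directions, 6 called lower and 2 higher. KRT17 fell from 135587 and 133122 counts to 29705 and 24952 and KRT14 from 10180 and 9625 to 1175 and 863, while KRT5 rose from 40142 and 38790 to 107783 and 97142 and TP63 from 195 and 167 to 2657 and 2183. The summed level of 4 leukocyte markers was between 0.803 and 1.18 CPM in wild type and between 60.8 and 83.2 CPM in HSF1-pLVX libraries. That rise lay in CD14, which went from 22 and 10 counts to 1470 and 1652, whereas the pan-leukocyte marker PTPRC held 0 counts in every library. The 8 fibroblast markers summed to between 7.59 and 15.6 CPM and the 4 endothelial markers to between 1.93 and 14.3 CPM, both higher in HSF1-pLVX libraries. Most of these counts lay in few genes. DCN held 1 and 3 counts in wild type and 94 and 87 in HSF1-pLVX libraries, and KDR 35 and 27 against 309 and 256. COL1A1 held 135 to 269 counts and PECAM1 1 to 23, whereas COL1A2 and COL3A1 held at most 1 count. The part of these marker shifts in the synthetase values was not tested. In such bulk samples, a change in the share of a cell type and a change in RNA per cell cannot be told apart.

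Synthetase genes were higher in HSF1-pLVX cells in both compartments, and no member was called lower. At an adjusted p of 0.05, 13 of 19 tested cytosolic genes and 9 of 14 tested mitochondrial genes rose. These are 68.4% and 64.3% of the tested members, whereas 32.7% of the 15830 genes tested were called higher and 65.9% were called in either direction. The median log2 fold change was 0.52 over the cytosolic genes and 0.45 over the mitochondrial genes, beside 0.02 over all genes tested. Without HSF1-pLVX replicate 2 these medians were 0.41 and 0.39, and the difference between the compartments was not tested. None of the 33 tested members was called lower, 0 of them at an unadjusted p under 0.05 either, against 33.2% of all genes called lower. DESeq2's Wald test and limma on the deposited normalized values also called 0 members lower. A fitted value below 0 was found in 4 members. The changes were moderate: 5 cytosolic genes and 1 mitochondrial gene were called and at least 2-fold higher, a class that held 14.9% of all genes tested. Both HSF1-pLVX libraries lay above both wild type libraries in 15 cytosolic and 12 mitochondrial genes, and 42.1% of all genes had that order. The opposite order was found in 3 cytosolic genes and 1 mitochondrial gene, and in 41.0% of all genes.

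Of the members, 3 did not pass the filter on low counts and could not be compared. VARS (chromosome 6 of hg38, 31777518 to 31795953), the cytosolic valine enzyme, held 0 counts in all libraries. Of the 30 other genes within 100 kb of it, 29 held 0 counts in all libraries, and the normalized table lists VARS in 7 rows. VARS2 (chromosome 6, start 30908242), its mitochondrial partner, held 0 and 7 counts in wild type and 3 and 7 counts in HSF1-pLVX libraries. It is listed in 6 rows, and 13 of its 14 neighbours held 0 counts. SARS2 (chromosome 19, start 38915266), the mitochondrial serine enzyme, held 1 count in 1 library and is listed in 2 rows. Of its 16 neighbours, 12 held under 10 counts in every library, and 5 of these held 0 counts. Exons of 2 other genes share 57% of the exonic bases of SARS2, and neither gene held more than 5 counts in any library. These values describe the count table and do not show whether the genes were transcribed.

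Among the cytosolic genes, IARS, AARS, YARS, WARS and LARS rose most, each to more than 2-fold. IARS (ENSG00000196305.17, chromosome 9, start 92210207), the isoleucine enzyme of the multisynthetase complex, was at 150 and 143 CPM in wild type replicates 1 and 2 and at 353 and 369 CPM in HSF1-pLVX replicates 1 and 2. Its log2 fold change was 1.30 ± 0.0909 (SE, adjusted p = 1.62e-08). AARS (ENSG00000090861.15, chromosome 16, start 70252295), the alanine enzyme, which also edits mischarged tRNA, went from 123 and 115 CPM to 271 and 283 CPM. For AARS the log2 fold change was 1.22 ± 0.0903 (SE, adjusted p = 2.90e-08). In both genes, the wild type libraries lay close together and far below both HSF1-pLVX libraries. YARS (ENSG00000134684.10, chromosome 1, start 32775237), the tyrosine enzyme, had 126 and 120 CPM in wild type and 252 and 290 CPM in HSF1-pLVX cells, a log2 fold change of 1.14 ± 0.0965 (SE, adjusted p = 1.17e-07). WARS (ENSG00000140105.17, chromosome 14, start 100333788), the tryptophan enzyme and also an interferon-induced gene, had 183 and 167 CPM against 377 and 389 CPM, a log2 fold change of 1.13 ± 0.0929 (SE, adjusted p = 8.95e-08). LARS (ENSG00000133706.17, chromosome 5, start 146113038), the leucine enzyme of the complex, which also takes part in leucine sensing, had 131 and 130 CPM against 272 and 286 CPM, a log2 fold change of 1.10 ± 0.0884 (SE, adjusted p = 7.05e-08). The groups did not overlap in any of the 5 genes.

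Smaller rises were called in 8 further cytosolic genes. DARS, the aspartate enzyme of the complex, was at 60.5 and 56.2 CPM in wild type and at 107 and 111 CPM in HSF1-pLVX cells, a log2 fold change of 0.90. FARSB, which encodes the beta subunit of the phenylalanine enzyme, rose from 40.9 and 42.3 CPM to 68.3 and 73.1 CPM (log2 fold change 0.76, adjusted p = 2.06e-06). FARSA, which encodes the catalytic alpha subunit of the same enzyme, did not follow, with 75.5 and 69.1 CPM against 66.2 and 67.3 CPM. Its log2 fold change was -0.11, with a 95% interval from -0.30 to 0.07 (adjusted p = 0.244), and the difference between the subunits was not tested. EPRS, a single protein that carries both the glutamate and the proline enzyme, rose from 198 and 178 CPM to 287 and 308 CPM (log2 fold change 0.66, adjusted p = 2.47e-05). SARS, the serine enzyme, had the widest spread of these genes between the HSF1-pLVX libraries, at 284 and 340 CPM, above 219 and 211 CPM in wild type (log2 fold change 0.54, adjusted p = 0.000303). MARS, the methionine enzyme, which also charges the initiator tRNA, went from 176 and 165 CPM to 239 and 249 CPM (log2 fold change 0.52). GARS, the glycine enzyme, went from 231 and 222 CPM to 299 and 323 CPM, a log2 fold change of 0.46. In each of these genes both HSF1-pLVX libraries were above both wild type libraries.

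Calls of the 2 smallest cytosolic rises depended on the library or setting. QARS, the glutamine enzyme, had 148 and 130 CPM in wild type and 173 and 188 CPM in HSF1-pLVX cells (log2 fold change 0.38, adjusted p = 0.00296). Without HSF1-pLVX replicate 2 it was no longer called, at a log2 fold change of 0.32 (adjusted p = 0.108). KARS, the lysine enzyme, had 187 and 164 CPM against 205 and 214 CPM (log2 fold change 0.25, adjusted p = 0.0293). Its call was lost in 3 of the 4 fits that leave out a library, those without HSF1-pLVX replicate 1, HSF1-pLVX replicate 2 or wild type replicate 2, and its adjusted p was between 0.00418 and 0.309 over the alternatives. The log2 fold change of KARS was 0.29, 0.23 and 0.14 in those 3 fits, in that order.

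The remaining 6 cytosolic genes were not called. TARS, the threonine enzyme and the most abundant member by CPM in wild type cells, had 249 and 245 CPM in wild type and 258 and 262 CPM in HSF1-pLVX libraries. Its log2 fold change of 0.07 had a 95% interval from -0.11 to 0.26. RARS, the arginine enzyme of the complex, was at 154 and 153 CPM against 150 and 152 CPM, with an interval from -0.20 to 0.16. NARS, the asparagine enzyme, had 171 and 170 CPM against 185 and 193 CPM, a log2 fold change of 0.15 (adjusted p = 0.151) that was called only with library size as the sole normalization. HARS, the histidine enzyme, had 138 and 134 CPM against 120 and 124 CPM, a log2 fold change of -0.15 (adjusted p = 0.122). So in NARS and TARS the groups were apart upwards and in HARS, RARS and FARSA apart downwards, but by less than the test called. CARS, the cysteine enzyme, had 18.8 and 13.1 CPM against 18.6 and 19.5 CPM, and its groups overlapped. The log2 fold change of CARS was 0.25 (adjusted p = 0.134), but 0.55 and called without wild type replicate 1 (adjusted p = 0.000492), and 0.00 without wild type replicate 2. CARS also has 2 rows in the normalized table, and its value is uncertain to that extent.

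**Figure D1:**
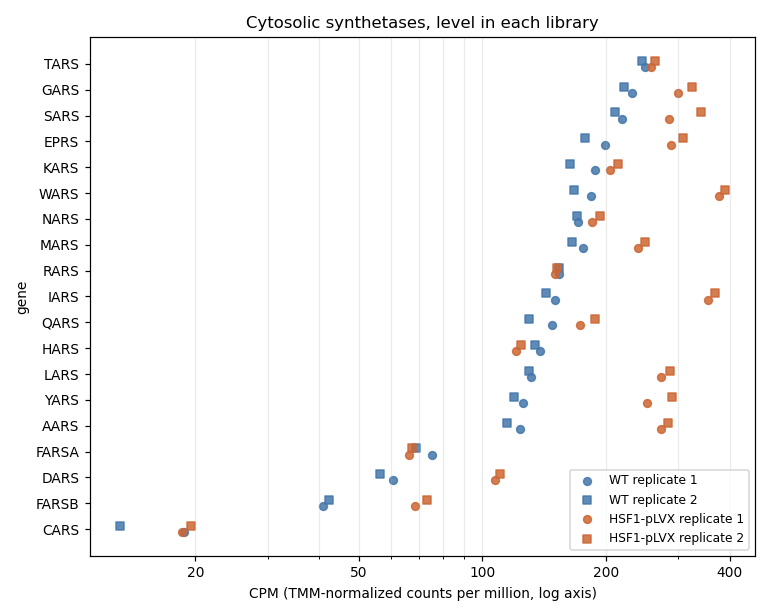
Level of the 19 tested cytosolic synthetase genes in each library, in CPM on a log axis, ordered by the wild type mean. Blue and orange points stand for single wild type and HSF1-pLVX libraries. IARS, AARS, YARS, WARS and LARS show the widest gap between colours, and CARS overlaps.

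The C/EBP-ATF response element was searched because ATF4 is a known regulator of this family. The motif TGATGNAA was looked for on both strands in the RefSeq windows (GRCh38.p14) from 250 bases before to 50 bases after each gene's start. A window was matched for 30 of the 36 members, and the unmatched ones were DARS, LARS, VARS, YARS, AARS2 and VARS2. The motif was in 5 of 16 cytosolic windows (31.2%) and 1 of 14 mitochondrial windows (7.14%), and in 3.62% of all 35116 windows. A pattern of 3 adjoining inverted GAANN units was in 0 of the 30 member windows and in 0.0484% of all windows. Inverting the unit as written leaves unequal gaps between the units, unlike in the heat shock element bound by HSF1. The presence of that element was therefore not tested. A match is a description of the letters and shows no binding. The stretches below are shown because they hold every match, written 5′ to 3′ on the transcript strand with the match in capitals.
AARS, chr16:70289675-70289704, minus strand: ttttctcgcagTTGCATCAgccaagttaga
GARS, chr7:30594834-30594863, plus strand: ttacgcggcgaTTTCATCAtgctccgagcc
IARS, chr9:92293692-92293721, minus strand: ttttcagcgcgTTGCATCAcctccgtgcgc
MARS, chr12:57488053-57488082, plus strand: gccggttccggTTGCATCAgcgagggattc
NARS, chr18:57621804-57621833, minus strand: tctacgctctcTGATGCAAcgccggaatcg
YARS2, chr12:32756076-32756105, minus strand: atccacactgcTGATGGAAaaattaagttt

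The same 8 letters, TTGCATCA, were found in AARS, IARS and MARS and, on the other strand, in NARS. Counted from the start site as 0, the match began at -187 in AARS, -33 in GARS, -13 in IARS, -4 in MARS and 14 in NARS. All 5 of these cytosolic genes had both HSF1-pLVX libraries above both wild type libraries, and 4 were called higher, with log2 fold changes of 1.30 in IARS, 1.22 in AARS, 0.52 in MARS and 0.46 in GARS. NARS was the fifth. Among the 11 cytosolic genes with a window and no match, 6 were called higher, and the medians were 0.52 with and 0.25 without the motif. DARS, LARS and YARS, with log2 fold changes of 0.90, 1.10 and 1.14, had no window and are in neither group. The medians could differ if they were placed. WARS, at 1.13, rose without a match in this window. YARS2 held a match at -197 and was not called. These groups were small and their difference was not tested.

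Among the mitochondrial genes, WARS2 alone rose beyond 2-fold. WARS2 (ENSG00000116874.11, chromosome 1, start 119031216), the mitochondrial tryptophan enzyme, was at 12.4 and 10.5 CPM in wild type replicates 1 and 2 and at 23.1 and 23.4 CPM in HSF1-pLVX replicates 1 and 2. Its log2 fold change was 1.02 ± 0.117 (SE, adjusted p = 2.68e-06). NARS2 (ENSG00000137513.9, chromosome 11, start 78435961), for asparagine, went from 15.7 and 13.2 CPM to 27.3 and 26.6 CPM, a log2 fold change of 0.90 ± 0.112 (SE, adjusted p = 6.00e-06). In both genes the HSF1-pLVX libraries were nearly equal, while the wild type libraries differed more. EARS2 (ENSG00000103356.15, chromosome 16, start 23522014), for glutamate, had 25.8 and 26.05 CPM against 40.3 and 39.8 CPM, a log2 fold change of 0.63 ± 0.0898 (SE, adjusted p = 2.61e-05). CARS2 (ENSG00000134905.16, chromosome 13, start 110641412), for cysteine, had 58.8 and 53.2 CPM against 79.8 and 87.9 CPM, a log2 fold change of 0.58 ± 0.0893 (SE, adjusted p = 4.90e-05). AARS2, for alanine, went from 19.4 and 19.5 CPM to 27.4 and 29.9 CPM (log2 fold change 0.56, adjusted p = 0.000207).

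The other called mitochondrial genes were PARS2, TARS2, FARS2 and IARS2, for proline, threonine, phenylalanine and isoleucine. TARS2 went from 23.5 and 22.0 CPM to 30.4 and 32.6 CPM (log2 fold change 0.47), and FARS2 from 13.3 and 13.0 CPM to 17.6 and 17.7 CPM (log2 fold change 0.43). IARS2 was the most abundant mitochondrial member, at 125 and 117 CPM against 151 and 154 CPM (log2 fold change 0.33, adjusted p = 0.00384), and without HSF1-pLVX replicate 2 its call was lost at nearly the same log2 fold change of 0.32 (adjusted p = 0.0719). PARS2 rested on between 80 and 151 counts per library. It had 4.26 and 5.06 CPM against 5.89 and 7.60 CPM, and the log2 fold change was 0.53, with a 95% interval from 0.11 to 0.94 (adjusted p = 0.0262). The call of PARS2 was lost without HSF1-pLVX replicate 2 (log2 fold change 0.35, adjusted p = 0.209) and without wild type replicate 1 (log2 fold change 0.42, adjusted p = 0.0924).

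No call was made for HARS2, LARS2, MARS2, RARS2 and YARS2. LARS2, for leucine, had 29.5 and 27.5 CPM against 33.1 and 29.9 CPM (log2 fold change 0.15, adjusted p = 0.198). With each library left out, its log2 fold change lay between 0.075 and 0.225 and was not called. RARS2, for arginine, was the only tested mitochondrial member with a fitted value below 0, at 34.3 and 35.9 CPM in wild type and 31.3 and 32.8 CPM in HSF1-pLVX cells (log2 fold change -0.13, adjusted p = 0.215). YARS2, for tyrosine, had 25.2 and 21.9 CPM against 23.7 and 26.1 CPM, and its groups overlapped. The log2 fold change of YARS2 was 0.08, and -0.04 without wild type replicate 2. HARS2, for histidine, had 54.0 and 53.2 CPM against 55.2 and 58.6 CPM, with an interval of the log2 fold change from -0.10 to 0.26. MARS2, for methionine, had 107 to 161 counts per library and a wider interval, from -0.26 to 0.46. A change within that interval could not be told from none.

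**Figure D2:**
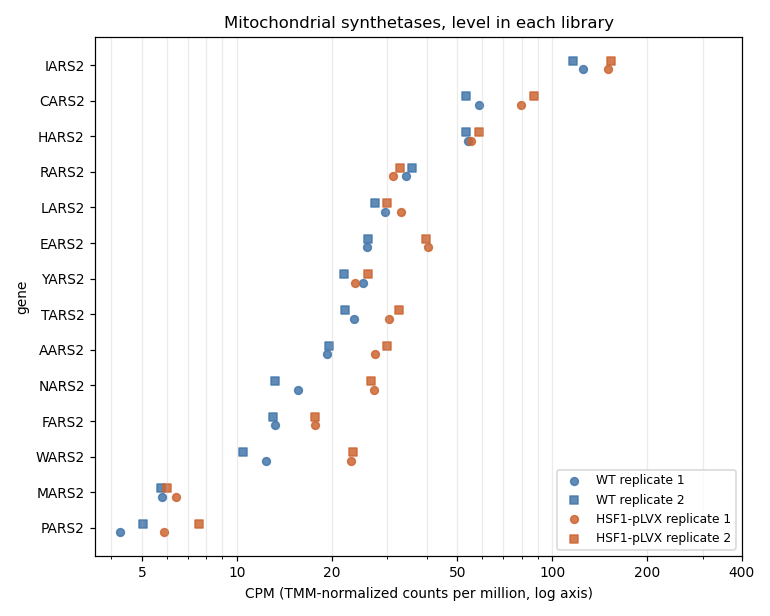
Level of the 14 tested mitochondrial synthetase genes in each library, in CPM on a log axis, ordered by the wild type mean. Blue and orange points stand for single wild type and HSF1-pLVX libraries. WARS2 and NARS2 show the widest gap between colours, and YARS2 overlaps.

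**Figure D3:**
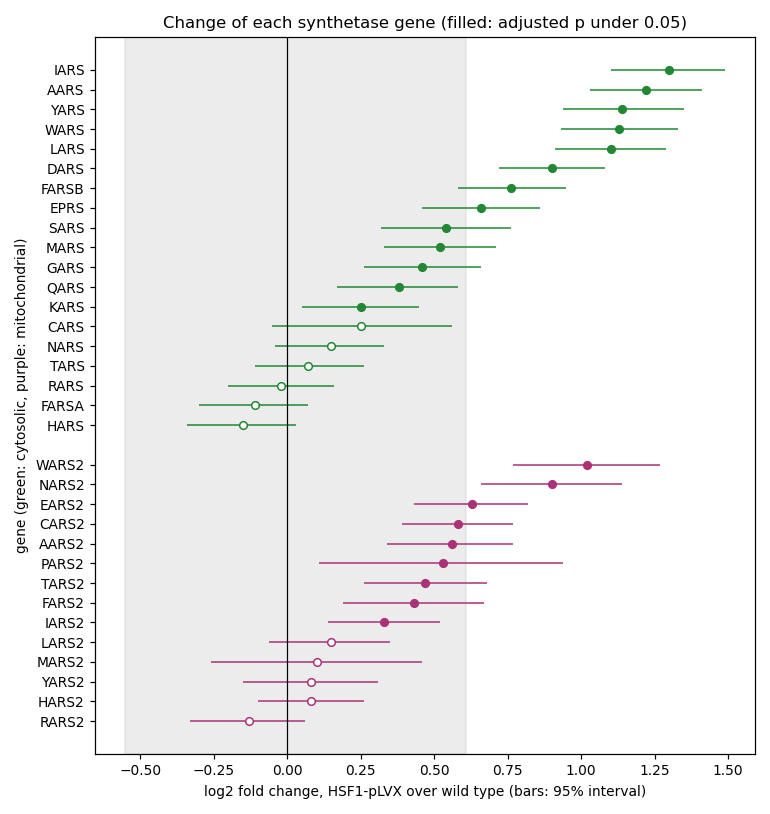
Fitted log2 fold change of each tested synthetase gene with its 95% interval, green for cytosolic and purple for mitochondrial genes and filled where called at an adjusted p of 0.05. The grey band spans the middle of all 15830 genes tested, from -0.55 to 0.61. Filled points are all above 0, up to 1.30 for IARS and 1.02 for WARS2.

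Summed over the members, the cytosolic genes rose from 2781 and 2627 CPM in wild type replicates 1 and 2 to 3986 and 4242 CPM in HSF1-pLVX replicates 1 and 2. The mitochondrial genes went from 447 and 424 CPM to 552 and 573 CPM. The mitochondrial genes therefore made up 13.8 and 13.9% of the summed CPM in wild type libraries and 12.2 and 11.9% in HSF1-pLVX libraries. These sums are led by the abundant members and have no test.

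Per exonic length, the members differed widely in level. In TPM, counts scaled to exonic length and to the total of each library, the tested cytosolic genes had a median of 86.1 in wild type cells and the mitochondrial genes one of 16.6. SARS was highest, at 174 and 176 TPM in wild type replicates 1 and 2, followed by GARS at 169 and 171 TPM. RARS, TARS and KARS came next at means of 140, 135 and 135 TPM, and their single libraries overlapped. IARS2 (90.8 TPM) and HARS2 (49.2 TPM) were the highest mitochondrial members, whereas MARS2 (5.99 TPM) and PARS2 (6.22 TPM) were the lowest of those tested. The lowest tested cytosolic member was CARS, at 5.67 and 4.20 TPM. The lengths cover all annotated exons of a gene (10037 bases for CARS and 10460 for CARS2), so genes with long unused exons can appear low on this scale. CARS was also the lowest tested cytosolic gene in CPM, which is not scaled to length, at 18.8 and 13.1 CPM in wild type replicates 1 and 2. However, the normalized table lists CARS in 2 rows, and the only other members with several rows were VARS, SARS2 and VARS2. The low level of CARS describes the count table and does not show weak transcription.

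Partners for the same amino acid were set side by side in 17 pairs, of which 15 had both genes tested. The fitted log2 fold change was larger in the cytosolic partner in 10 pairs and in the mitochondrial partner in 5, with a median difference of 0.11. EPRS was set beside both EARS2 and PARS2, and FARS2 beside both FARSA and FARSB, so these genes count more than once. The widest differences were in the tyrosine, isoleucine and leucine pairs. The log2 ratio of YARS to YARS2 was 2.32 and 2.45 in wild type and 3.41 and 3.47 in HSF1-pLVX libraries. For IARS to IARS2 it was 0.26 and 0.29 against 1.23 and 1.26, and for LARS to LARS2 2.15 and 2.24 against 3.04 and 3.26. In all 3 pairs both HSF1-pLVX ratios were above both wild type ratios. The asparagine pair went the other way, from 3.45 and 3.69 to 2.76 and 2.86; NARS2 rose and NARS was not called. Of the pairs with both genes called, glutamate had the closest fitted values, at 0.66 for EPRS and 0.63 for EARS2, and tryptophan the next, at 1.13 for WARS and 1.02 for WARS2. Neither arginine partner, RARS or RARS2, was called. The pairs are given as a description, and their differences were not tested.

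**Figure D4:**
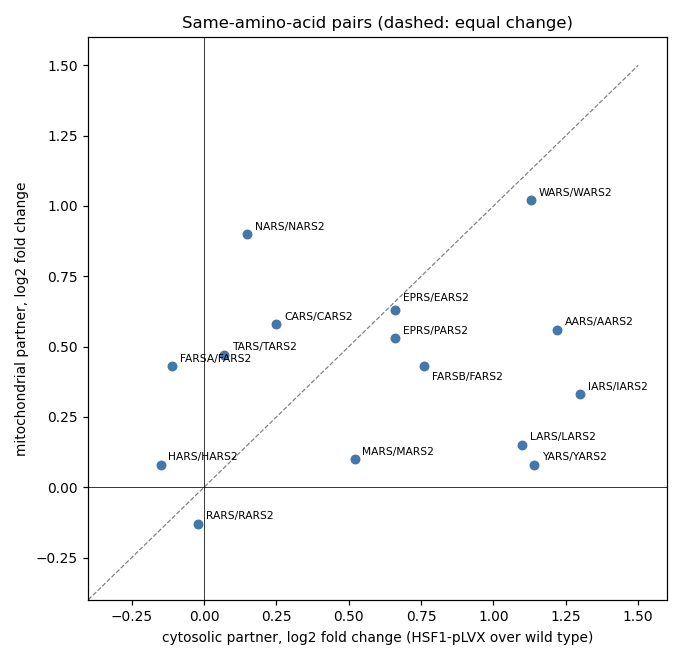
Fitted log2 fold change of the cytosolic (x axis) against the mitochondrial (y axis) partner for the 15 pairs with both genes tested; the dashed line marks equal change. YARS, IARS and LARS lie far to the right of the line, NARS2 lies above it and WARS/WARS2 lies near it.

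HARS and HARS2 lie head to head on chromosome 5 and share 592 exonic bases on opposite strands. These are 7.02% of the exonic bases of HARS and 17.4% of those of HARS2, and HARS also shares 952 bases with WDR55. The strand setting of the counting is not stated, so reads there cannot be assigned, and both values are uncertain to that extent. MARS shares 12.4% of its exonic bases with genes on the opposite strand, among them DDIT3, and WARS shares 10.6%. Of the other tested members, DARS had the largest overlap, at 7.6%.

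By role, more members were called higher than not among both the 8 enzymes of the multisynthetase complex and the free enzymes. The counts that follow stand beside 32.7% of all genes called higher. In the complex, 7 of 8 rose, all but RARS, with a median log2 fold change of 0.59, and 1 of the 7 was KARS, whose call was lost in several settings. Of the 11 tested free cytosolic enzymes 6 rose, with a median of 0.46. Of the 3 scaffolds of the complex 1 rose, or 33.3%. AIMP1 had 43.1 and 43.3 CPM in wild type and 42.9 and 46.0 CPM in HSF1-pLVX libraries, and AIMP2 21.2 and 20.0 CPM against 19.04 and 18.2 CPM, and neither was called (adjusted p = 0.716 and 0.239). EEF1E1 rose from 4.74 and 5.76 CPM to 8.80 and 7.20 CPM (log2 fold change 0.61, adjusted p = 0.00696). By the class of the catalytic fold, 7 of 9 tested class I genes were called higher (median 0.66) and 6 of 10 class II genes (median 0.36). EPRS carries an enzyme of each class and was counted as class I by its glutamate enzyme. Its own value is the class I median. Of the 12 cytosolic genes listed as ATF4-responsive, 9 rose, with a median of 0.60, and CARS, NARS and TARS were not called. Of the 7 other tested cytosolic genes 4 rose, with a median of 0.25. The differences between these groups were not tested.

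Further genes that act around tRNA charging were mixed. Of 11 other aminoacylation genes, 6 rose and 2 fell, with a median log2 fold change of 0.24. Over all genes tested, 32.7% were called higher and 33.2% lower, shares that stand beside the counts of both lists here. TARSL2, a further threonine enzyme of the cytosol, fell from 32.4 and 38.3 CPM to 6.45 and 6.997 CPM, a log2 fold change of -2.40 ± 0.124 (SE, adjusted p = 7.21e-10). The member TARS, for the same amino acid, was not called. DTD1, which removes D-amino acids from tRNA, fell by 0.33 on the log2 scale (adjusted p = 0.00369). The largest rises in this list were AARSD1, which edits mischarged alanine tRNA, with a log2 fold change of 1.54, and DTD2, with 0.67. In the list for tRNA delivery and export 6 of 7 tested genes rose, with a median log2 fold change of 1.14. The gene at that median held no more than 3.47 CPM in any library. Its log2 difference was 0.55 in replicate 1 and 2.11 in replicate 2, so the median is uncertain. XPOT, the exporter that carries tRNA out of the nucleus, had 64.8 and 63.8 CPM in wild type and 197 and 196 CPM in HSF1-pLVX libraries (log2 fold change 1.61, adjusted p = 1.09e-09). EEF1D had the largest fitted rise, 1.93, but at no more than 3.07 CPM in any library. EEF1G held 0 counts in every library and was not tested, and EEF1A1, the abundant cytosolic carrier of charged tRNA, which has many similar copies, had a log2 fold change of 1.35.

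Genes of the amino acid stress response were higher as well, 17 of 20, with 1 lower and a median log2 fold change of 1.18, beside 32.7% called higher over all genes. ATF4 was at 232 and 242 CPM in wild type and at 487 and 570 CPM in HSF1-pLVX cells (log2 fold change 1.16, adjusted p = 1.86e-07). The largest rises were in PHGDH, the first enzyme of serine synthesis, with a log2 fold change of 3.65, and in DDIT4, an inhibitor of mTORC1, with 2.93. ASNS, which makes asparagine and is not a tRNA synthetase, rose with a log2 fold change of 2.46. The gene that fell was ATF5, with a log2 fold change of -0.52 (adjusted p = 0.000251). EIF2AK4, the kinase that senses uncharged tRNA, had 127 and 114 CPM against 120 and 124 CPM and was not called. DDIT3, at 9.91 and 9.10 CPM against 9.56 and 8.004 CPM, was not called either (adjusted p = 0.533).

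**Figure D5:**
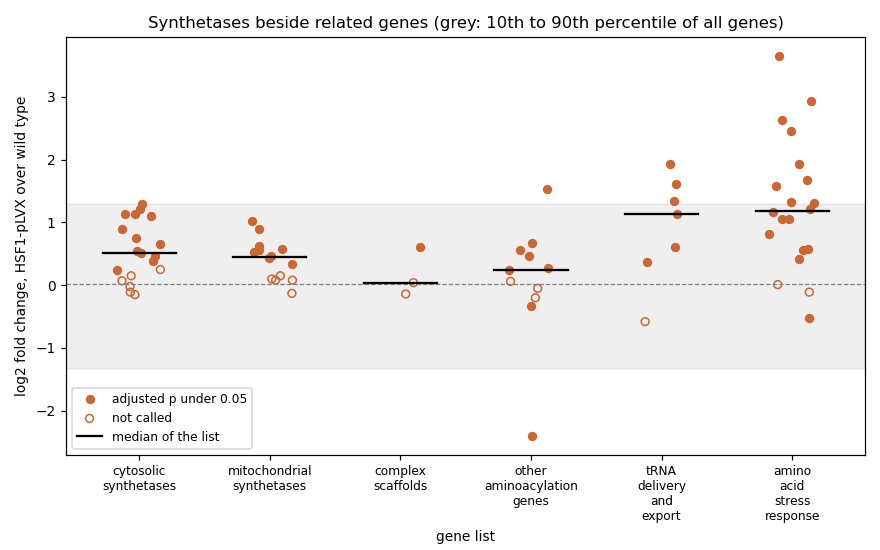
Fitted log2 fold change of the tested genes in each list, one point a gene, filled where called at an adjusted p of 0.05, with the list's median as a black bar. The grey band spans the 10th to 90th percentile of all genes tested, from -1.33 to 1.29. Synthetase medians of 0.52 and 0.45 lie above the all-gene median and below the 1.18 of the amino acid stress response.

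The study called a gene changed where the ratio on the deposited normalized values was above 2 or below 0.5 in both replicates. Of the 32 members with a single row there, IARS, AARS and LARS passed upwards, 3 of 18 cytosolic genes, and 0 of 14 mitochondrial genes passed, while 5.00% of the 22321 rows did. No member passed downwards, against 6.42% of the rows. LARS was just inside the rule, with ratios of 2.005 and 2.18 in replicates 1 and 2, and WARS just outside it, with 1.99 and 2.30.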

How the data were processed

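RNA-seq counts of 4 MCF10A libraries were analysed, grouped by variant and replicate as labelled. The deposited gene counts are raw; the authors made them from paired-end reads of ribosomal RNA-depleted RNA by alignment to hg38 with HISAT2 2.0.5, SAMtools 1.13 and featureCounts 1.6.5 on GENCODE release 26. The strand and multi-mapping settings are not stated. The second table, also from the authors, gives normalized values on a log2 scale (DESeq2 1.32.0) and was used for the study's ratio rule and as an alternative. The deposited gene length, in exonic bases and not a measured value, gave TPM.

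Members were matched to Ensembl identifiers through current gene symbols and RefSeq synonyms, and all 36 were found. Members and gene lists were chosen with earlier results of these data known. The count test was that of edgeR 4.0.16 (R 4.3.3, with TMM, filterByExpr, quasi-likelihood test, Benjamini-Hochberg adjustment over 15830 genes, called at 0.05). Standard errors were derived from the F statistic. The TMM factors ran from 0.9635 to 1.04. Replicate libraries differed by more than sampling noise (chi-square per degree of freedom of 6.62 for wild type and 8.04 for HSF1-pLVX). No block was used, since no source says that a replicate number marks a shared culture. Alternatives were DESeq2 1.42.0 (size factors, Wald test), library size alone, no filter, an adjusted p of 0.01, the replicate block, limma 3.58.1 on the deposited values, and each library left out. On simulated counts of 15416 genes on average, with 200 changed, the test recovered 97.5% and 2.48% of its calls were false. The changed genes were set at 2-fold or more and all others at no change, whereas 65.9% of genes were called in the data. These shares therefore do not apply to the members that changed less than 2-fold. All members may be named. Values in every library were to be given for the largest called changes in each compartment and the 3 pairs that differ most, and were given for most members. Of each related list, the 2 largest called rises and falls are named, and EEF1A1, ATF4, ASNS, EIF2AK4 and DDIT3 were added after their values were seen. A gene of a related list is not reported here.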

Additional observations from a re-analysis of the deposited data

How the results depend on the processing

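No member changed its call under DESeq2's size factors or with the replicate number as a block. Under the block 13 cytosolic and 9 mitochondrial genes were called higher, the same numbers as without it. The numbers were not taken to pair the samples: libraries sharing a number deviated from their group means with a correlation of 0 over the genes tested and of -0.113 over the 9672 genes above 8 CPM. With crossed numbers, chosen after seeing the data, 14 and 9 genes were called. The HSF1 log2 fold change stayed between 2.31 and 2.41 over settings with all libraries and between 2.29 and 2.40 with each library left out, where the lone library of a group is assumed to vary like the other group. Over the same settings with all libraries, cytosolic genes called higher numbered 12 to 14 and mitochondrial genes 8 to 9. With each library left out they numbered 11 to 14 and 7 to 9, with medians of 0.41 to 0.58 and 0.39 to 0.48. The number called lower was 0 under every setting. RARS had a fitted value of 0.037 with library size alone, which shifted the median of all genes to 0.08. YARS2 was at -0.038 without wild type replicate 2 and lay between -0.04 and 0.20 with each library left out. Calls of KARS and PARS2 were lost under DESeq2's Wald test (adjusted p = 0.0555 and 0.105), under limma on the deposited values (0.0997 and 0.0562) and at an adjusted p of 0.01, and that of KARS without the filter on low counts (0.057). The cause was not tested. With 2 libraries a group, the members with few counts, such as MARS2 and PARS2, had wide intervals, and small changes in them could not be told from none.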
